A study of Mus musculus with 3 samples.

Results

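A set of 8 genes, of 32285 gene rows measured, encodes brakes on MAP kinase signalling: the dual-specificity phosphatases Dusp1, Dusp2, Dusp4, Dusp5, Dusp6, Dusp10 and Dusp14 and the Ras pathway inhibitor Spry1. They were followed in single immune cells from inflamed sciatic nerve. The genes were picked by name from their measured values in these same libraries, so their levels across T cell groups and the differences between those groups are given as a description, without a test. Tests of the 8 genes are given only for comparisons that the choice did not name. These comparisons use the same libraries and many of the same cells, so their p-values are not independent of that choice.

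The data were single-cell RNA-Seq counts of immune cells, taken as CD45+ in a cell sort, from the sciatic nerves of NOD.AireGW/+ mice with neuropathy. Every mouse carried 1 partial loss-of-function allele of Aire, a gene that the thymus needs to display self antigens, on the autoimmunity-prone NOD background. The 3 libraries made up 1 group, with 1 mouse each in libraries 1 and 2 and 2 pooled mice in library 3, and the study used female mice. The labels give no age, and no control group was analysed here. Nerves were digested with collagenase and sorted before capture.

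MAP kinases such as ERK, JNK and p38 carry signals from the T cell antigen receptor to the nucleus, and they act only while phosphorylated on both a threonine and a tyrosine of their activation loop. Dual-specificity phosphatases remove both phosphates, and many of their genes are themselves switched on by the signal they end. Sprouty proteins act further upstream and dampen the step from receptors through Ras to ERK.

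The libraries held 3926, 8311 and 1533 cells with 22983991, 55120460 and 3399733 UMIs (unique molecular identifiers, each counting 1 captured transcript), and the median cell had 3985.5, 4659 and 1726 UMIs. Library 3 was therefore the least precise. Library 2 stood apart in makeup, since 23.3% of its cells passed the myeloid gate, against 2.18% and 3.46% in libraries 1 and 3. Libraries 1 and 2 shared 36 cell barcodes, libraries 1 and 3 shared 7, and libraries 2 and 3 shared 14. No gene list belonging to library 1 was used here, and its matrix was read in the row order of the others, with which its row totals had a Spearman correlation of 0.9501 (library 2) and 0.9287 (library 3) across genes.

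Cells were grouped by marker UMIs alone. Conventional CD4 T cells had Cd4 and no Cd8a, Cd8b1, Foxp3 or Trdc UMI, and were split by Il21 (a helper cytokine), Tnfsf8 (the CD30 ligand) and S1pr1 (the receptor that lets lymphocytes leave tissue). This gave Il21+ cells, Tnfsf8+ cells and S1pr1+ cells, the latter without Il21 and Tnfsf8, and triple-negative cells with none of the 3. Foxp3+ cells, CD8 T cells, gamma delta T cells (Trdc+) and NK cells (Ncr1+ without CD3 genes) completed the 8 groups. The S1pr1+ sums held 125, 180 and 36 cells in libraries 1 to 3, the Tnfsf8+ sums 139, 127 and 37, the Foxp3+ sums 378, 530 and 111, and the CD8 sums 941, 924 and 258. Gamma delta sums held 135, 306 and 44 cells and NK sums 53, 73 and 14. Il21+ cells numbered 84, 128 and 8, and the 8 cells of library 3 were left out of sums, since at least 10 cells were required. A group without a UMI of a marker can still hold cells that express it, because single cells were sampled shallowly.

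Levels are CPM, the usual depth-scaled unit: the summed UMIs of a gene in a group relative to all UMIs of that group, scaled by TMM, which sets the groups to a common composition. Values in threes are for libraries 1, 2 and 3, and errors are SD over libraries. Levels of different genes are not compared with each other, since no value per transcript length was used. The ratios within a library and the levels given with the comparisons further on are CPM without TMM scaling, so they differ from the scaled levels of the same groups. Sums of marker lists carry TMM scaling except in the Nr4a1 and Havcr2 comparisons.

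**Figure D1:**
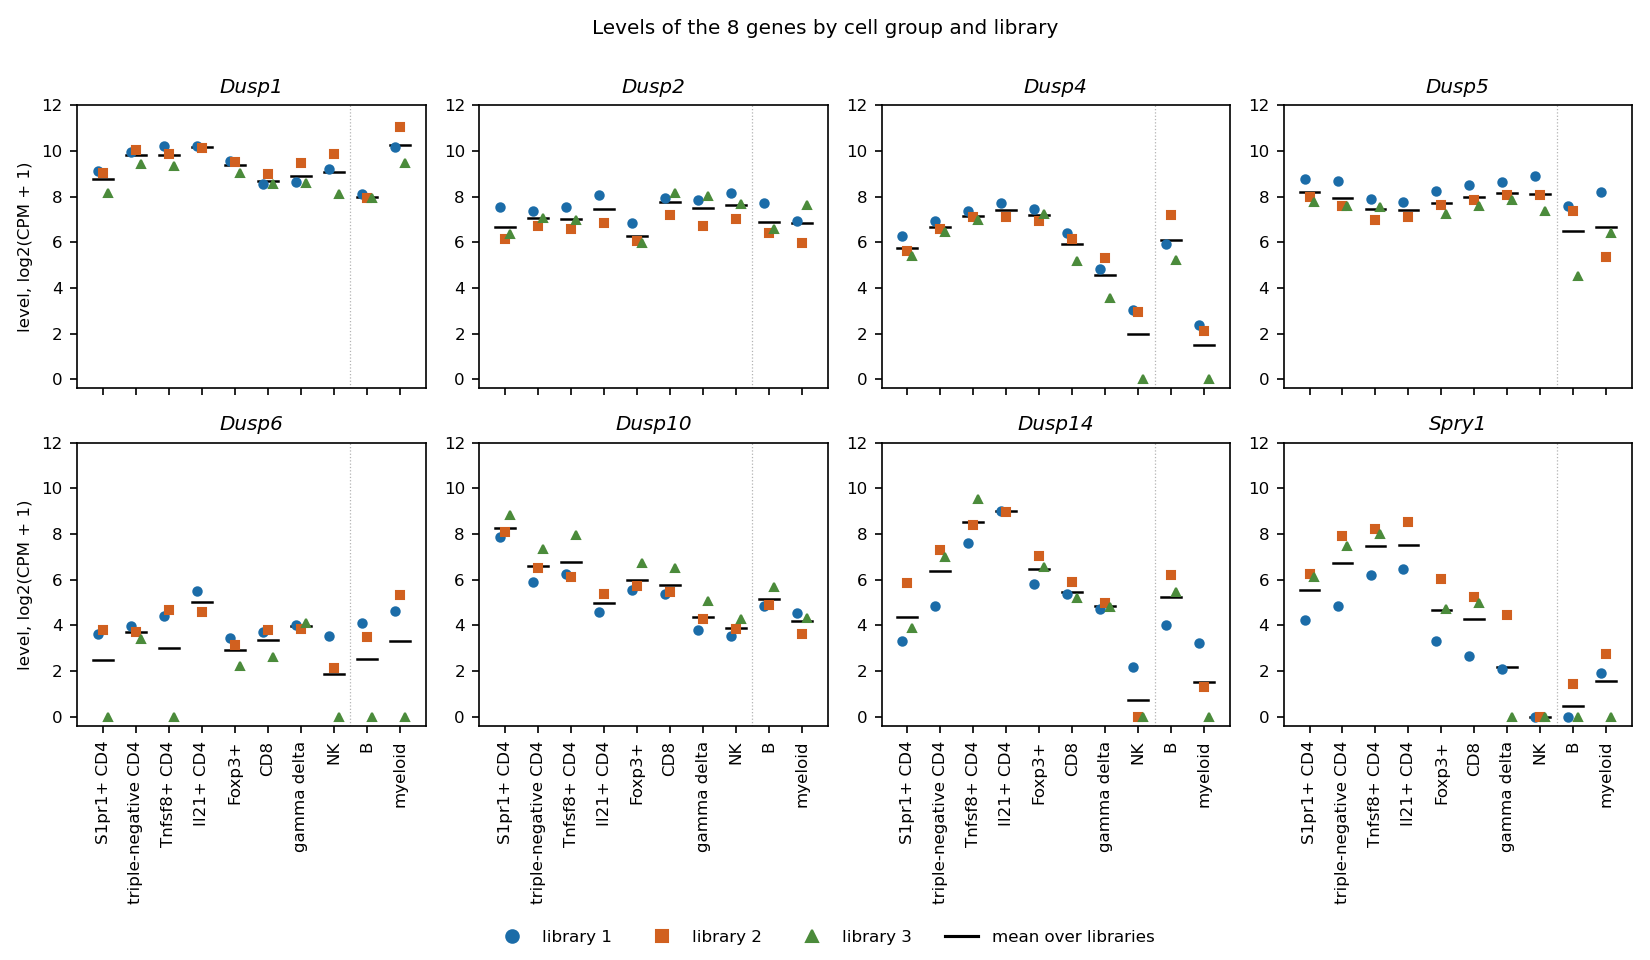
Level of each gene on a log2(CPM + 1) scale (y axes) in the 8 T and NK groups and in B and myeloid cells (x axes), with 1 symbol per library and a bar at the mean over libraries. Dusp14 and Spry1 were highest in Tnfsf8+ and Il21+ CD4 cells and absent or nearly so in NK cells, Dusp10 was highest in S1pr1+ cells, and Dusp2 and Dusp5 stayed within a 2.83-fold and a 1.73-fold range of group means.

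Dusp1 encodes an inducible nuclear phosphatase that acts on p38 and JNK as well as ERK. Its level was 557, 519 and 286 CPM in S1pr1+ cells and 1192, 940 and 651 CPM in Tnfsf8+ cells. Il21+ cells had 1186 and 1124 CPM in libraries 1 and 2, and CD8 cells 372, 501 and 373 CPM. Both helper groups lay above the CD8 cells in every library that had them. The means ran from 1155 ± 44.0 CPM (n = 2) in Il21+ cells to 415 ± 74.3 CPM (n = 3) in CD8 cells, a 2.78-fold range, and the library ranges of all 7 pairs of neighbours in that order overlapped. Outside the T and NK groups, B cells had 278, 242 and 247 CPM and myeloid cells 1141, 2143 and 716 CPM.

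Dusp2 encodes a nuclear phosphatase that is induced early in activated lymphocytes. CD8 cells had 248, 145.5 and 282 CPM, NK cells 288, 128 and 201 CPM, and Foxp3+ cells 112, 65.3 and 61.2 CPM. In each library the Foxp3+ level was the lowest of the T and NK groups, although library 1 of the Foxp3+ cells lay above library 2 of several other groups. The group means differed 2.83-fold at most, from 225 ± 70.9 CPM in CD8 to 79.6 ± 28.4 CPM in Foxp3+ cells (n = 3 each), and all 7 neighbouring pairs overlapped.

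Dusp4 encodes another inducible nuclear phosphatase of ERK and JNK. It stood at 209 and 137 CPM in Il21+ cells, at 175, 122 and 148 CPM in Foxp3+ cells and at 162, 135 and 124 CPM in Tnfsf8+ cells. S1pr1+ cells had 76.7, 47.8 and 40.8 CPM and gamma delta cells 27.3, 38.2 and 10.8 CPM. The first 3 groups did not overlap with the S1pr1+ or gamma delta cells. NK cells had 4 Dusp4 UMIs in 140 cells (7.10, 6.76 and 0 CPM), so that the Il21+ level pooled over all 220 cells was 29.1 times theirs, with an exact 95% counting interval of 11.2 to 107.7. Myeloid cells were also near 0 (4.22, 3.28 and 0 CPM), and B cells were not, at 59.3, 143 and 36.3 CPM.

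Dusp5 encodes a nuclear phosphatase specific for ERK, and it ran the other way among CD4 cells. S1pr1+ cells had 438, 254 and 218 CPM, Tnfsf8+ cells 239, 125 and 186 CPM and Il21+ cells 216 and 135 CPM. The S1pr1+ level was the higher in every library, while the ranges over libraries overlapped. Means over the 8 groups differed only 1.73-fold, from 303 ± 118 CPM (n = 3) in S1pr1+ cells to 175 ± 57.0 CPM (n = 2) in Il21+ cells, the narrowest range of the 8 genes.

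Dusp6 encodes the cytoplasmic phosphatase of ERK and was scarce. Il21+ cells had 44.4 and 22.8 CPM, the Tnfsf8+ cells 20.1, 24.9 and 0 CPM and the S1pr1+ cells 11.3, 12.9 and 0 CPM. All other T and NK values lay between 0 and 16.2 CPM, where few UMIs stand behind each value, and all 7 neighbouring pairs overlapped.

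Dusp10 encodes a phosphatase that prefers JNK and p38, and it was the one gene of the set with its peak in S1pr1+ cells together with a wide range. It stood at 230.2, 272 and 449 CPM in S1pr1+ cells, at 75.2, 69.4 and 248 CPM in Tnfsf8+ cells and at 23.3 and 40.7 CPM in Il21+ cells. In every library the S1pr1+ cells were the highest of all groups, and library 3 was above libraries 1 and 2 throughout the CD4, Foxp3+ and CD8 groups. Foxp3+ cells had 46.1, 52.1 and 104 CPM and CD8 cells 40.5, 43.4 and 91.1 CPM. NK cells were lowest, with 8 UMIs in all (3, 4 and 1). The pooled S1pr1+ level was 22.0 times the pooled NK level, with an exact 95% counting interval of 11 to 51.3.

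Dusp14 encodes a small atypical phosphatase without the MAP kinase docking domain of the others, reported to act close to the antigen receptor. It had the widest range in the CD4 cells. S1pr1+ cells held 9.03, 57.0 and 13.6 CPM, from 4, 31 and 1 UMIs. Tnfsf8+ cells held 194, 340 and 744 CPM, from 116, 191 and 72 UMIs, and Il21+ cells 522 and 504 CPM, from 247 and 310 UMIs. Neither helper group overlapped with the S1pr1+ cells. Triple-negative cells lay between (28.1, 158 and 126 CPM), as did Foxp3+ cells (54.6, 132 and 93.6 CPM), while CD8 cells had 39.9, 58.3 and 35.4 CPM and gamma delta cells 25.1, 30.7 and 27.0 CPM. NK cells had 1 Dusp14 UMI in 140 cells, which left the ratio of the pooled CD8 level to theirs at 29.2 with an exact 95% counting interval of 5.21 to 1154. This ratio was 12.7 without library 2, and without library 1, which held the NK UMI, the CD8 level was at least 6.04-fold higher than the floor of 3 counts.

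Spry1 encodes the feedback inhibitor of Ras to ERK signalling. Il21+ cells had 88.8 and 366 CPM, Tnfsf8+ cells 71.9, 297 and 258 CPM and triple-negative cells 28.1, 238 and 175 CPM. S1pr1+ cells had 18.1, 75.4 and 68.1 CPM, Foxp3+ cells 9.02, 63.8 and 25.2 CPM and CD8 cells 5.24, 36.7 and 30.4 CPM. Library 1 was the lowest in each of these groups, so the ranges of neighbouring groups overlapped although within each library Tnfsf8+ cells lay above triple-negative cells, these above S1pr1+ cells, and these above both Foxp3+ and CD8 cells. NK cells had 0 Spry1 UMIs of 622417, which allows up to 4.82 CPM at 3 counts. Against that floor over the pooled NK cells, the pooled Il21+ level was at least 54.7-fold higher, a bound that was 11.6 without library 2. Against CD8 cells no bound held, since it was 4.04 with all libraries and 0.853 without library 2. B cells held 0, 1.69 and 0 CPM and myeloid cells 2.81, 5.76 and 0 CPM. These intervals and floors cover counting error only.

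The region in front of a gene's start site bears on its control, so stretches from RefSeq (GRCm38.p6, the mm10 assembly) are shown for 4 of the 7 genes with an entry: Dusp14 and Spry1, whose levels peaked in the same helper groups, and Dusp1 and Dusp5, whose stretches hold a match to an inducible-gene motif. Dusp4 had no entry. Capitals mark a CRE (TGACGTCA, bound by CREB and ATF proteins) in Dusp1 and a pair of adjoining CArG boxes (the element bound by serum response factor) in Dusp5. Each stretch is written 5′ to 3′ on the gene's strand and lies at chr17:26508520-26508722 (Dusp1, minus strand), chr19:53528895-53529108 (Dusp5, plus), chr11:84068358-84068480 (Dusp14, minus) and chr3:37639697-37639946 (Spry1, plus).
Dusp1: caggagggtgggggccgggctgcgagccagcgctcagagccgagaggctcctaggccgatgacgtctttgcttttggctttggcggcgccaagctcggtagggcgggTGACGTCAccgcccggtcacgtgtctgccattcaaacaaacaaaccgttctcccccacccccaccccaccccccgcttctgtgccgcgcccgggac
Dusp5: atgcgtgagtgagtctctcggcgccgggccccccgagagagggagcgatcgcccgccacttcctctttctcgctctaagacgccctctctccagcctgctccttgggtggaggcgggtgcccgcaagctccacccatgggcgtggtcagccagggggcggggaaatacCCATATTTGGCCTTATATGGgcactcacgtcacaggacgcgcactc
Dusp14: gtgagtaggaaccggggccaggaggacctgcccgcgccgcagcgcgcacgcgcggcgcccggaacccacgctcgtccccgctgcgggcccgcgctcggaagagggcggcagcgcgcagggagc
Spry1: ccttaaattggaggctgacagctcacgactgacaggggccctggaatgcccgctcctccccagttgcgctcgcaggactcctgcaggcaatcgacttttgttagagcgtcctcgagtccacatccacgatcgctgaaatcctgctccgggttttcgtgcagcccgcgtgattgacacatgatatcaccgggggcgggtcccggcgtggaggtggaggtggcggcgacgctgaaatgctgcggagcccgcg
The CRE began 143 bases before the RefSeq start of Dusp1, and the CArG boxes 82 and 72 bases before that of Dusp5. Searched on both strands in the 250 bases before each start, a CRE was found in 1.55% of 32851 promoters and a CArG box in 1.47%. An AP-1 site (TGANTCA), found in 6.75% of promoters, was in 0 of the 7 genes' windows, and an E box (CACGTG), found in 6.02%, was in 2. Matches are letters in a window and do not show binding.

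In the GENCODE annotation of the same assembly the genes lie at chr17:26505590-26562128 (Dusp1), chr2:127336159-127338376 (Dusp2), chr8:34807297-34819894 (Dusp4), chr19:53529109-53542431 (Dusp5), chr10:99263231-99267489 (Dusp6), chr1:184013302-184075636 (Dusp10), chr11:84048041-84069261 (Dusp14) and chr3:37639947-37644598 (Spry1). The Dusp1 and Dusp14 stretches shown above lie inside these spans, which begin upstream of the RefSeq starts used for the 2 genes. Antisense genes overlap Dusp1 (Ergic1 and Gm8225), Dusp5, Dusp10 and Spry1. Whether the counting used strand is not given in the sources used here, so for these 4 genes reads of the antisense partner cannot be told apart.

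Set against S1pr1+ cells of the same library, Il21+ cells had more Dusp14 and Spry1 and less Dusp10. In CPM without TMM scaling, Dusp14 was 59.4 and 8.81 times higher in libraries 1 and 2, Spry1 5.05 and 4.83 times, and Dusp4 2.80 and 2.85 times. Dusp10 stood at 0.104 and 0.149 of the S1pr1+ level and Dusp5 at 0.506 and 0.530. Dusp1 was 2.19 and 2.16 times as high and Dusp2 1.49 and 1.60 times, so that both libraries moved the same way for each of these genes. The fitted log2 differences over both libraries were 3.92 (SE 0.42) for Dusp14, 2.28 (SE 0.22) for Spry1 and -2.95 (SE 0.24) for Dusp10. All 8 genes passed the filter on low counts, with a median of 1.25 against -0.01 over the 5869 genes fitted. Of those 5869 genes, 2.44% were called higher and 2.08% lower (edgeR quasi-likelihood test, Benjamini-Hochberg adjusted p under 0.05), and nothing is read from this for the 8 genes, which were chosen on this contrast. The 8 Il21+ cells of library 3, outside the fit, held 11 Dusp4, 7 Spry1, 4 Dusp10 and 1 Dusp14 UMIs of 14818.

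Tnfsf8+ cells differed from S1pr1+ cells in the same directions. Dusp14 was 23.0, 5.84 and 55.8 times higher, the last on 1 Dusp14 UMI in the S1pr1+ cells of library 3, and Spry1 4.26, 3.86 and 3.87 times. Dusp4 was 2.26, 2.77 and 3.10 times higher and Dusp1 2.29, 1.77 and 2.32 times. Dusp10 stood at 0.350, 0.250 and 0.563 of the S1pr1+ level and Dusp5 at 0.584, 0.480 and 0.872. Spry1 thus varied little between libraries as a ratio although its levels varied widely. The fitted log2 differences were 3.27 (SE 0.27) for Dusp14, 1.97 (SE 0.24) for Spry1 and -1.58 (SE 0.20) for Dusp10, and the value for Dusp14 was 4.80 without library 2. Dusp6 did not pass the filter, and the other 7 genes had a median of 1.03 against 0.01 over 5571 genes, of which 2.6% were called higher and 2.64% lower. Both helper groups were set against the same S1pr1+ cells, so the 2 sets of differences are not independent.

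Markers of macrophages and of handling also differed between these groups, but the macrophage sum was lower in Tnfsf8+ than in S1pr1+ cells in library 2. The summed level of the macrophage markers Apoe, C1qa and Lyz2 was 18.1, 285 and 0 CPM in S1pr1+ cells, 237, 235 and 10.3 CPM in Tnfsf8+ cells, and 230.4 and 349.6 CPM in Il21+ cells, against 4603, 71290 and 7150 CPM in myeloid cells. The 17 dissociation-response genes, such as Fos, Atf3 and heat shock genes, summed to 7621, 8764 and 7650 CPM in S1pr1+ cells. Their sums were 9179, 9099 and 8773 CPM in Tnfsf8+ cells and 9309 and 10400 CPM in Il21+ cells. Myeloid cells were at or near 0 for Dusp14, Spry1 and Dusp4 and among the highest of all groups for Dusp1. The part of these markers in the levels of the 8 genes was not tested.

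**Figure D2:**
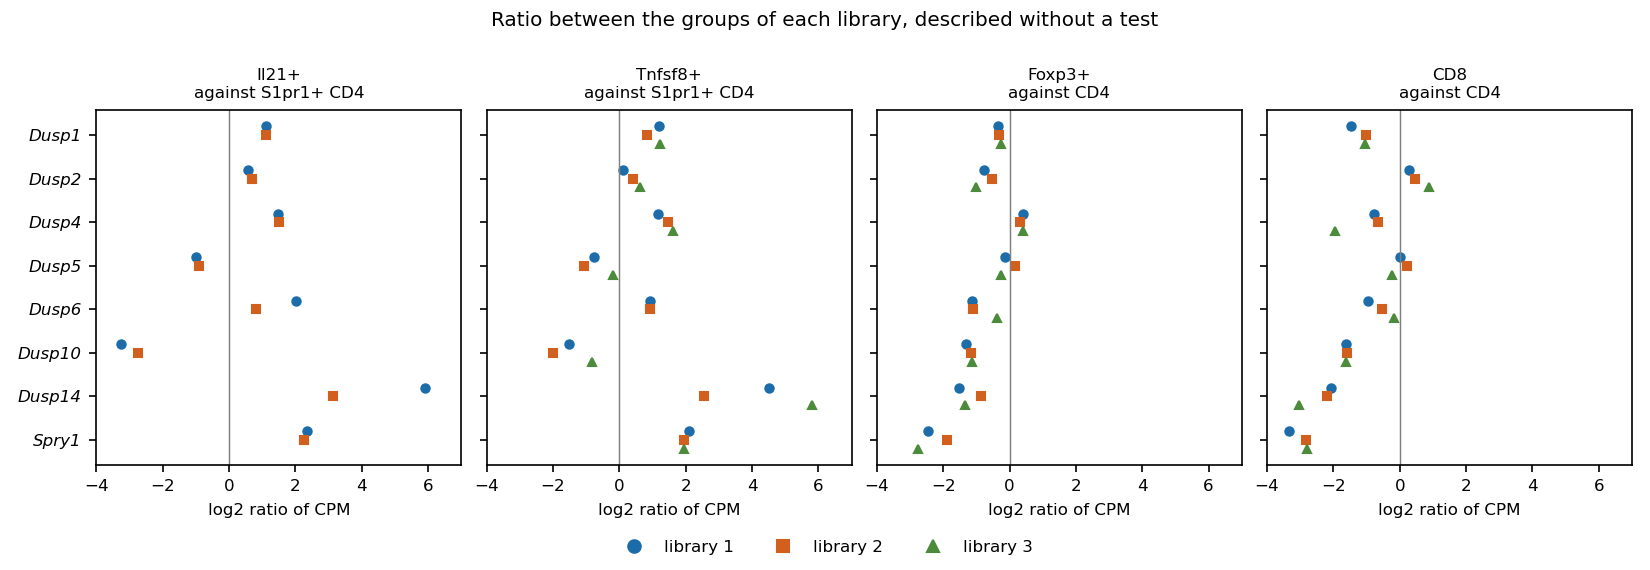
Log2 ratio of CPM (without TMM scaling) between groups of the same library (x axes) for each gene (y axis), with 1 symbol per library, in the 4 comparisons that are described and not tested (CD4 stands for all conventional CD4 cells). Dusp14, Spry1 and Dusp4 lie right of 0 and Dusp10 and Dusp5 left of 0 in each library for Il21+ and for Tnfsf8+ against S1pr1+ cells, while Dusp10, Dusp14 and Spry1 lie left of 0 in each library for Foxp3+ and for CD8 cells.

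Foxp3+ cells, the regulatory T cells, held less Spry1, Dusp10 and Dusp14 than conventional CD4 cells and slightly more Dusp4. Spry1 stood at 0.182, 0.273 and 0.148 of the conventional level, Dusp10 at 0.399, 0.446 and 0.457 and Dusp14 at 0.346, 0.551 and 0.397. Dusp2 stood at 0.588, 0.693 and 0.495, and Dusp1 at 0.780, 0.807 and 0.835. Only Dusp4 was higher in each library, at 1.31, 1.25 and 1.32 times, and Dusp5 went both ways, at 0.904, 1.12 and 0.831. In the fit, Spry1 differed by -2.12 (SE 0.16) and Dusp4 by 0.32 (SE 0.11) on the log2 scale, and the 8 genes had a median of -0.93 against -0.004 over 9368 genes. The background was 4.41% higher and 3.99% lower.

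CD8 cells, too, held less Spry1, Dusp14 and Dusp10 than conventional CD4 cells, while Dusp2 was higher. Spry1 stood at 0.0986, 0.142 and 0.144 of the CD4 level, Dusp14 at 0.236, 0.219 and 0.122 and Dusp10 at 0.327, 0.334 and 0.322. Dusp1 was at 0.360, 0.495 and 0.486 and Dusp4 at 0.588, 0.638 and 0.256. Dusp2 was 1.21, 1.39 and 1.84 times as high, and Dusp5 stayed near the CD4 level, at 1.01, 1.16 and 0.855. The fitted log2 differences ran from -2.83 (SE 0.14) for Spry1 to 0.58 (SE 0.11) for Dusp2, with a median of -0.91 against 0.02 over 9691 genes, of which 7.83% were called higher and 7.87% lower. Without TMM scaling the split over all genes was 474 higher and 1025 lower in place of 759 and 763.

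The share of cells with a UMI was compared after thinning to 1000 UMIs per cell, since the groups differed in depth. Cells with fewer UMIs were left out, which took 31 of 341 S1pr1+, 26 of 303 Tnfsf8+, 9 of 220 Il21+, 143 of 2123 CD8, 8 of 140 NK, 20 of 593 B and 65 of 2063 myeloid cells. The median cell had 3030, 2310 and 1500 UMIs in S1pr1+ sums, 2750, 3371 and 2036 in Tnfsf8+ sums, and 3753 and 3536 in the Il21+ sums used, against 3945, 2899 and 1726 in B cells and 8870, 6900 and 2113 in myeloid cells. Dusp14 was then seen in 1.91% ± 1.75 of S1pr1+ cells, 21.0% ± 9.04 of Tnfsf8+ cells (n = 3 each) and 25.9% ± 1.25 of Il21+ cells (n = 2), against 0.460% ± 0.796 of B and 0.455% ± 0.654 of myeloid cells (n = 3 each). Unthinned, those shares were 3.66%, 34.5%, 40.9%, 6.17% and 1.76%. The Dusp14 level was 43.7 ± 28.7 CPM in B cells and 3.30 ± 4.51 CPM in myeloid cells (n = 3 each), so of these only the myeloid cells were near 0. In each library the shares of the helper groups lay above the S1pr1+, B and myeloid shares.

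Spry1 was seen in 5.60% ± 4.32 of S1pr1+ cells, 17.6% ± 5.91 of Tnfsf8+ cells and 23.4% ± 12.6 of Il21+ cells after thinning (unthinned 8.08%, 36.7% and 44.9%). The thinned share was 2.44% ± 1.70 in CD8 cells. Over all libraries, 0 of 132 NK cells had a Spry1 UMI at that depth, which allows up to 2.27% of cells with one, and 0 of 573 B cells, which allows up to 0.524%. B cells held 2 Spry1 UMIs before thinning. Dusp10 was seen in 26.1% ± 4.39 of S1pr1+ cells, 9.87% ± 2.51 of Tnfsf8+ cells and 4.86% ± 2.43 of Il21+ cells (unthinned 40.8%, 23.5% and 13.0%), the last close to the 4.17% ± 2.65 of B cells. Dusp1 was common everywhere, from 19.5% of B cells to 61.8% of Il21+ cells.

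**Figure D3:**
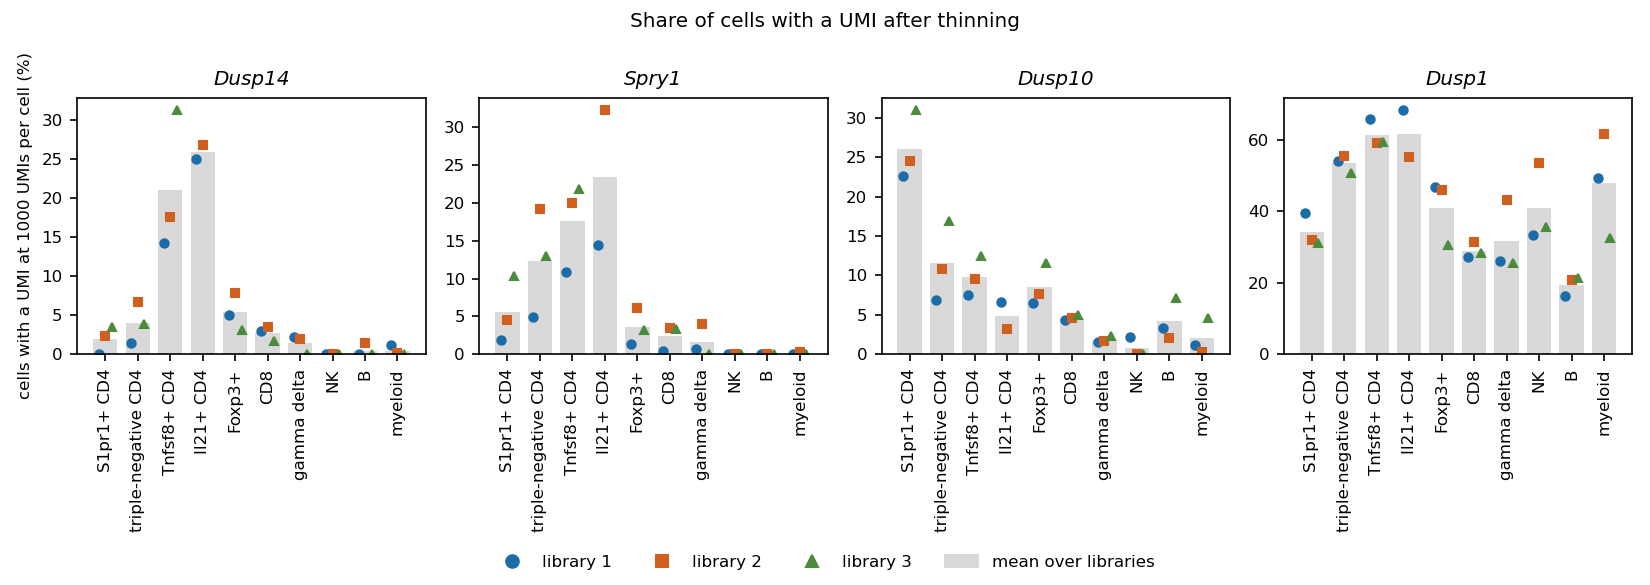
Share of cells with at least 1 UMI of a gene after thinning to 1000 UMIs per cell (y axes, percent, from 0) in each group (x axes), with bars at the mean over libraries and 1 symbol per library. Dusp14 and Spry1 were seen most in Tnfsf8+ and Il21+ cells, Dusp10 most in S1pr1+ cells at 26.1%, and Dusp1 widely, from 19.5% of B cells upward.

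Nr4a1 is an immediate target of antigen receptor signalling, and cells with a UMI of it were set against cells of the same library without one. Whether a Nr4a1 UMI marks that signal in these cells was not tested. Among conventional CD4 cells only Dusp14 of the 8 genes passed the test. It had 227, 327 and 314 CPM (here without TMM scaling) in Nr4a1+ cells and 52.6, 62.9 and 167 CPM in Nr4a1- cells. It was higher in 3 of 3 libraries and the groups did not overlap. The fitted log2 difference was 2.07 (SE 0.19, edgeR adjusted p = 5.99e-08). Of 7062 genes tested, 1.63% were called higher and 0.595% lower. Of the 8 genes 1 was higher and 0 lower, with 6 at an unadjusted p under 0.05 and 1 called by DESeq2. The share of all genes at that unadjusted p is not given, here or beside later counts of this kind. The values for Dusp2 were 0.58 (adjusted p = 0.052), for Dusp4 0.66 (adjusted p = 0.068), for Spry1 0.52 (adjusted p = 0.086) and for Dusp1 0.06 (adjusted p = 0.892). Some of these misses depended on the setting. Dusp4 passed without library 3 (0.86, adjusted p = 0.000147), Dusp2 and Spry1 under a gate that allowed no B cell or myeloid marker UMI (0.79, adjusted p = 0.00294, and 0.63, adjusted p = 0.0366), Dusp2 and Dusp4 with no filter on low counts (adjusted p = 0.0248 and 0.0133), and all 3 without the 5% of cells with the most UMIs (adjusted p = 0.0193, 0.038 and 0.0226 for Dusp2, Dusp4 and Spry1).

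Il21+ cells made up 18.5%, 19.0% and 6.54% of the Nr4a1+ and 6.69%, 10.9% and 1.25% of the Nr4a1- cells, and Nr4a1+ cells were deeper, with a median of 3672, 3172 and 1818 UMIs against 1754, 2153 and 1585. Within triple-negative CD4 cells alone the Dusp14 difference was 0.90 (adjusted p = 0.536), and in cells thinned to 1000 UMIs it was 1.72 (adjusted p = 0.0107). Leaving out 1 library at a time gave 1.73 to 2.38, each called. The dissociation-response genes summed to 11020, 9700 and 10560 CPM in Nr4a1+ and 7754, 8915 and 8358 CPM in Nr4a1- cells. The dendritic cell markers Flt3, Xcr1 and Cd209a summed to 52.7, 29.1 and 4.08 CPM in Nr4a1+ and 0, 1.08 and 0 CPM in Nr4a1- cells. The part of either list was not tested. Without TMM scaling the split over all genes was 96 higher and 91 lower in place of 115 and 42.

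The same comparison in CD8 cells again picked out Dusp14 alone. Nr4a1+ CD8 cells had 51.9, 69.7 and 40.9 CPM and Nr4a1- CD8 cells 16.4, 31.0 and 21.7 CPM. All 3 libraries were higher and the groups did not overlap. The fitted log2 difference was 1.34 (SE 0.22, edgeR adjusted p = 0.00195), where 1.56% of 8335 genes were called higher and 0.444% lower. The other 7 genes had an adjusted p of at least 0.201, among them Dusp4 at 0.49 and Dusp1 at 0.41 (adjusted p = 0.235). Whether the Nr4a1 difference itself differed between CD8 and CD4 cells was tested with an interaction term: 0 of 8542 genes passed in edgeR, with 291 at an unadjusted p under 0.05, and Dusp14 had a difference of -0.76 (SE 0.35, adjusted p = 1). The Nr4a1+ CD8 cells were deeper as well, with a median of 5065, 3730 and 2447 UMIs against 1834, 3033 and 1864, and their dissociation-response genes summed to 8129, 8304 and 8546 against 5786, 6546 and 6994 CPM. In thinned CD8 cells Dusp14 did not pass the filter on low counts, so no value at equal depth is available for it here. The dendritic cell markers summed to 30.4, 38.4 and 0 against 0.863, 2.38 and 0 CPM, and the part of either list was not tested.

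Havcr2 encodes the inhibitory receptor TIM-3 of repeatedly stimulated CD8 cells. In Havcr2+ against Havcr2- CD8 cells, Dusp2 was lower, and Dusp14 and Dusp4 were higher. Dusp2 had 217, 89.4 and 171 CPM against 297, 151 and 262 CPM, lower in 3 of 3 libraries, with a log2 difference of -0.64 (SE 0.15, edgeR adjusted p = 0.000724). Dusp14 had 61.9, 67.5 and 85.6 CPM against 31.4, 48.7 and 24.0 CPM, higher in 3 of 3 libraries without overlap (0.75, SE 0.20, adjusted p = 0.00656). Dusp4 had 132, 79.3 and 24.5 CPM against 65.3, 57.8 and 32.6 CPM, higher in 2 of 3 libraries (0.68, SE 0.18, adjusted p = 0.00489). Here 3.78% of 8357 genes were called higher and 4.51% lower, and 316 higher and 377 lower turned to 433 and 327 without TMM scaling.

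All 3 of these calls were lost with DESeq2, where the differences were -0.66, 0.84 and 0.58 for Dusp2, Dusp14 and Dusp4 (adjusted p = 0.110, 0.232 and 0.746). They were lost in edgeR without library 2, at -0.62, 1.04 and 0.77 (adjusted p = 0.393, 0.113 and 0.491). They were also lost in thinned cells, at -1.12, 0.38 and 0.64 (adjusted p = 0.279, 0.931 and 0.727), where the gates were drawn again and left 130, 31 and 5 Havcr2+ cells, so that library 3 dropped out as well. Those of Dusp14 and Dusp4 were lost without library 1, at 0.62 and 0.31 (adjusted p = 0.416 and 0.817). Dusp1 passed under the gate without any B cell or myeloid marker UMI (-0.45, adjusted p = 0.0223) and Dusp10 without the deepest cells (-0.80, adjusted p = 0.0156). Library 3 gave 16 Havcr2+ cells. The Havcr2+ CD8 cells were deeper in each library, with a median of 4243, 6359 and 3576 UMIs against 3880, 3129 and 2040. The NK markers Ncr1, Klrb1c and Prf1 summed to 381, 237 and 208 CPM in Havcr2+ and 160, 78.3 and 30.9 CPM in Havcr2- cells, and the dendritic cell markers to 30.4, 46.5 and 0 against 18.5, 15.1 and 0 CPM. Their part was not tested.

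T cells as a whole were set against B cells and myeloid cells of the same nerves, with levels again without TMM scaling. Against B cells, 5 of the 8 genes were higher and 0 lower in edgeR (5 at an unadjusted p under 0.05, and 5 called by DESeq2), where 16.3% of 9562 genes were called higher and 10.2% lower. Spry1 had 18.0, 94.1 and 69.3 CPM in T cells and 2 UMIs in all in B cells (0, 0.898 and 0 CPM), with an adjusted p of 3.56e-06. Dusp10 had 70.1, 75.8 and 165 CPM against 21.1, 15.3 and 43.2 CPM (log2 1.50, SE 0.21, adjusted p = 0.000299). Dusp1 had 663, 713 and 505 CPM against 209, 129 and 210 CPM (1.38, SE 0.18, adjusted p = 0.000199). Neither of these genes overlapped between T and B cells. Dusp14 (1.24, adjusted p = 0.0107) and Dusp5 (1.06, adjusted p = 0.0223) passed as well, but Dusp14 had 0.80 (adjusted p = 0.117) without library 1. Dusp2 (0.39, adjusted p = 0.202), Dusp4 (0.21, adjusted p = 0.704) and Dusp6 (0.16, adjusted p = 0.796) did not pass. The value of Dusp4 depended strongly on the setting, since it passed without library 2 (0.93, adjusted p = 0.0284), without the deepest cells (1.06, adjusted p = 0.00543) and in thinned cells (1.66, adjusted p = 5.84e-05), while it was -0.20 without library 1. Without TMM scaling the median over all genes moved to 0.59 and 3750 genes were higher and 602 lower, in place of 1558 and 980, and Dusp2 (0.86) and Dusp4 (0.74) passed too.

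Against myeloid cells, 5 genes were higher and 1 lower, where 13.8% of 11521 genes were called higher and 15.9% lower. Dusp14 had 76.2, 101 and 97.9 CPM in T and 7.57, 0.931 and 0 CPM in myeloid cells (adjusted p = 8.76e-06). Dusp4 had 121, 79.7 and 71.9 against 3.78, 2.08 and 0 CPM (adjusted p = 5.77e-07), and Spry1 18.0, 94.1 and 69.3 against 2.52, 3.65 and 0 CPM (adjusted p = 1.20e-05). All 3 genes were thus near 0 in myeloid cells. Dusp10 was higher too (2.45, SE 0.34, adjusted p = 8.58e-05), as was Dusp5 (1.38, SE 0.37, adjusted p = 0.0122), which lost its call without library 2 (0.64, adjusted p = 0.109) and without library 3 (1.45, adjusted p = 0.0815). Dusp1 was the only gene of the set called lower in T cells, with 663, 713 and 505 against 1023, 1358 and 611 CPM (-0.93, SE 0.25, adjusted p = 0.0126). That call was lost in thinned cells (-0.75, adjusted p = 0.254). Dusp6 stood at -1.08 (adjusted p = 0.0958), from -1.53 to -0.45 over the 10 alternatives, and passed without library 3 (-1.25, adjusted p = 0.0376) and in thinned cells (-1.53, adjusted p = 0.0354). Dusp2 passed as higher without library 3 (0.80, adjusted p = 0.0434) and without TMM scaling (0.87, adjusted p = 0.0233). All 8 genes had an unadjusted p under 0.05, but the share of all genes at that threshold is not given. The dissociation-response genes summed to 16800, 19220 and 12570 CPM with TMM scaling in myeloid cells, and their part was not tested. Without TMM scaling the median over all genes was 0.46, with 2960 higher and 1378 lower in place of 1586 and 1829.

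**Figure D4:**
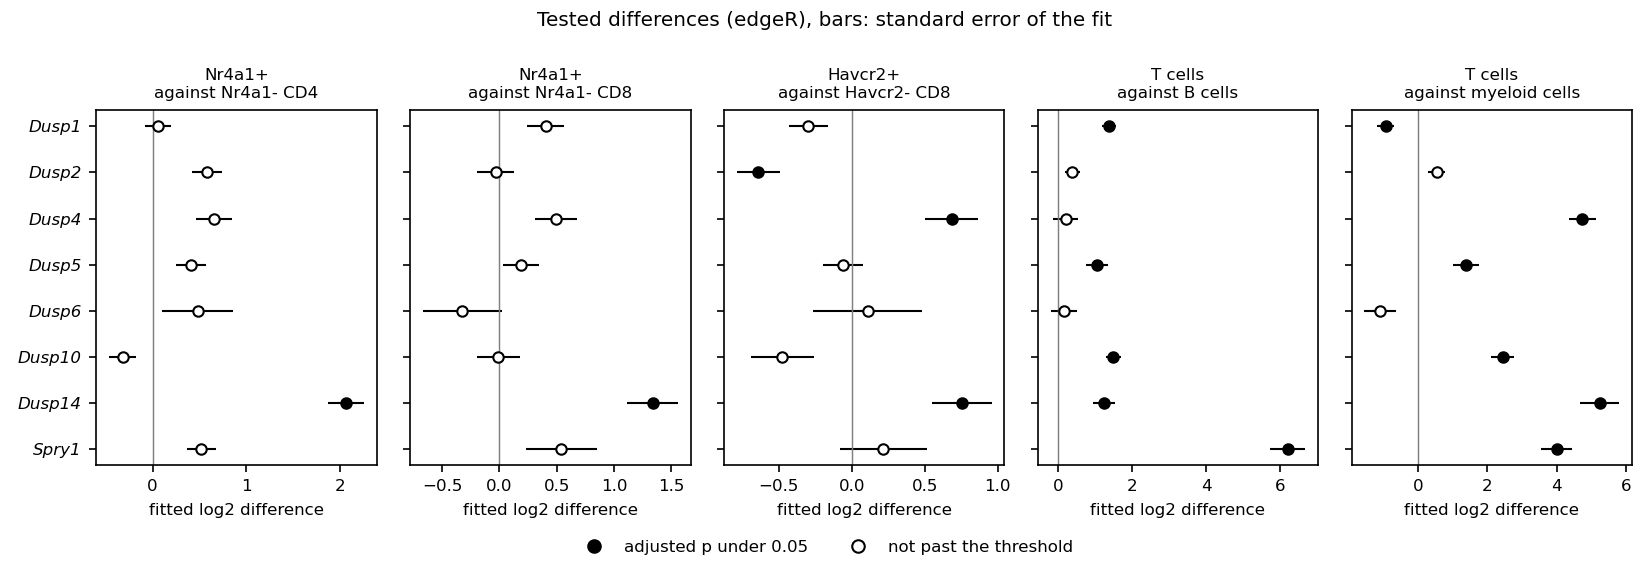
Fitted log2 difference of each gene (y axis) in the 5 tested comparisons (x axes, each with its own range), with bars for the standard error and filled circles for an edgeR adjusted p under 0.05. Dusp14 is the only gene filled in all 5 panels, at 2.07, 1.34, 0.75, 1.24 and 5.24 from left to right.

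Genes around the set in the pathway were taken from lists and tested in all 9 comparisons. Fos, Fosb, Junb and Ier2 stand in both the ERK response and the dissociation-response list, so the counts of these lists are not independent. Among 15 ERK response genes, which ERK signalling induces, Il21+ cells had 4 higher and 0 lower than S1pr1+ cells of 12 tested in edgeR (11 at an unadjusted p under 0.05, and 2 higher and 0 lower by DESeq2). They included Egr2 (log2 3.02, adjusted p = 0.0418), Fos (1.16) and Fosl2 (0.87). Tnfsf8+ cells had 5 higher and 1 lower of 11, with Phlda1 (1.08), Nr4a2 (0.92) and Fosb (0.88) higher and Ier2 (-0.79) lower, and 1 higher and 1 lower by DESeq2. In CD8 against conventional CD4 cells 2 were higher and 6 lower of 15, with Nr4a2 (2.05) and Ier3 (1.84) higher and Phlda1 (-1.57) lower, and 2 higher and 4 lower by DESeq2. Median differences of the list were 0.79, 0.62 and -0.42 in these 3 comparisons. In the same order, 2.44%, 2.6% and 7.83% of all genes were called higher and 2.08%, 2.64% and 7.87% lower. In Nr4a1+ CD4 cells Egr1 (1.11), Fosb (0.86) and Nr4a3 (0.83) were the 3 genes called of 12, all higher, and DESeq2 called 1. Of all genes, 1.63% were called higher there.

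Of the 25 genes of the MAP kinase cascade itself, 18 to 24 were tested in the comparisons between T cell groups. At most 1 was higher, in Il21+ cells (of 19, with 2.44% of all genes called higher) and in Havcr2+ CD8 cells (of 23, with 3.78%). At most 4 were lower, in CD8 against conventional CD4 cells (of 24, with 7.87% of all genes called lower). DESeq2 called 0 higher and at most 3 lower. Rasa3, a protein that switches Ras off, was lower in Il21+ cells (-2.58, adjusted p = 0.00642) and in Tnfsf8+ cells (-1.83, adjusted p = 4.21e-05) than in S1pr1+ cells, and in Havcr2+ CD8 cells (-1.18, adjusted p = 5.37e-06). Mapk11, a p38 kinase gene, was lower in CD8 cells (-3.58, adjusted p = 0.000167).

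Many relatives outside the set did not pass the filter on low counts. Of 14 other dual-specificity phosphatases, 2 to 8 passed the filter in the comparisons between T cell groups. Dusp16 was higher in Foxp3+ cells (0.97, adjusted p = 0.0245) and lower in CD8 cells (-2.10, adjusted p = 0.00109), and Dusp3 was higher in Foxp3+ cells (1.79). Dusp3 and Dusp22 were lower in T cells than in B cells (-2.24 and -1.78) and than in myeloid cells (-3.60 and -1.78). Of 6 other Sprouty and Spred genes, Spry2 was higher in CD8 than in CD4 cells (2.98, adjusted p = 0.00167), opposite to Spry1.

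Antigen receptor proximal genes were also read beside the set. Zap70, the kinase that the receptor recruits, was higher in Il21+ (1.00) and Tnfsf8+ cells (1.15) than in S1pr1+ cells, as was Cd247, the receptor's zeta chain (0.87 and 0.75). DESeq2 called 0 and 2 genes of the list higher in these comparisons. Of the 16 genes tested, 5 were lower and 0 higher in Foxp3+ cells in edgeR (7 at an unadjusted p under 0.05, and 4 lower by DESeq2), among them Cd28 (-0.81) and Cd247 (-0.65). Of 6 glucocorticoid response genes, which share induction by steroid hormones with Dusp1, Tsc22d3 was lower in Il21+ (-0.87) and Tnfsf8+ cells (-0.72) than in S1pr1+ cells. The 17 dissociation-response genes had 3 higher and 0 lower of 14 tested in Il21+ cells (10 at an unadjusted p under 0.05, and 2 higher by DESeq2), with Atf3 (1.92), Fos (1.16) and Junb (0.67), and 1 higher and 7 lower of 16 in CD8 cells (1 higher and 2 lower by DESeq2). Fos and Junb are ERK response genes as well. Over all genes, 3.99% were called lower in Foxp3+ cells, 2.44% higher in Il21+ cells, and 7.83% higher and 7.87% lower in CD8 cells.

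Likeness between genes was described by Pearson's r of log2(CPM + 1) over the 23 sums of the 8 T and NK groups, with the mean of each library removed, among 5441 genes of at least 20 CPM on average. These sums share libraries and cells of 1 mouse each, or of 2, and no test was made. Junb, an AP-1 subunit, was most like Dusp1 (0.892). Cd247 (0.964) and Tnfsf11, the RANK ligand gene (0.953), were most like Spry1. For Dusp14 they were Slc22a15 (0.894), the activation-induced factor Irf4 (0.886) and Gdi2 (0.879), and for Dusp10 Il7r, the IL-7 receptor gene (0.936), Esm1 (0.914) and Trav5-4 (0.877). Syt11 (0.951), Ptger2 (0.950) and Vamp8 (0.948) came first for Dusp4, Sema4a (0.846), Rps26 (0.823) and Snrpf (0.811) for Dusp2, and Ablim1 (0.837), Sorl1 (0.828) and Otulin (0.820) for Dusp5. Within the set, Dusp4, Dusp14 and Spry1 went together (0.847 to 0.870 for the 3 pairs), and Dusp5 went against Dusp14 (-0.631). Dusp10 had an r of 0.699 with Spry1, 0.631 with Dusp4 and 0.412 with Dusp14. Yet in Il21+ and Tnfsf8+ against S1pr1+ cells Dusp10 was lower and those genes were higher. A high r over these sums thus need not hold among the CD4 groups. Dusp6 was too low to be included.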

How the data were processed

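Reads of a 5′ gene expression kit were aligned to mm10 and counted by the authors in Cell Ranger, version 5.0.1 for library 1 and 6.1.2 for libraries 2 and 3 per the file headers. The deposited values are unnormalized UMI counts of its filtered cell barcodes. Intron counting and strand settings are not given in the sources used here. Cells with at least 300 UMIs, at most 5000 genes and at most 20% mitochondrial UMIs were kept (3848, 8256 and 1533 cells), following the study.

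Gates used UMIs of marker genes. T cells had at least 1 UMI of Cd3d, Cd3e or Cd3g, at most 1 B cell marker UMI and no more myeloid than T marker UMIs. B cells (at least 2 UMIs of Cd79a, Cd79b or Ms4a1) and myeloid cells (at least 3 UMIs of Csf1r, Cd68, C1qa, C1qb, C1qc or Lyz2) had no T marker UMI. Foxp3+ cells needed no Cd4 UMI. No doublet caller was run. Cells positive for both S1pr1 and Tnfsf8 but not Il21 were set aside.

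Counts were summed per library and group, for groups of at least 10 cells, and fitted across all genes with the edgeR 4.0.16 quasi-likelihood test (R 4.3.3), with TMM, filterByExpr and the library as a block, because the groups of a library come from the same mice. A call needed a Benjamini-Hochberg adjusted p under 0.05, two-sided. With the library as a block, these p-values rest in part on how the difference between groups of a library varies across the libraries. The fit also pools that variation across genes, so they do not measure the spread between libraries of 1 gene alone. Dusp4 in Havcr2+ CD8 cells, for example, passed while higher in 2 of 3 libraries. There were 3 libraries, or 2 in the Il21+ comparison. DESeq2 1.42.0 was an alternative, beside the others given in the closing section. The fit was tested on simulated data. Levels and shares were computed in Python 3.11.15 (numpy 2.4.6, pandas 2.3.3, scipy 1.17.1). Gate genes were left out of every count. The members and gene lists were chosen with earlier results of these data known. Named were the 8 members, for each other list and comparison up to 3 called genes with the largest change in each direction that moved the same way in every library, and the 3 genes most like each member. A few genes that this rule would name are not reported here. The interaction term between the Nr4a1 comparisons was added after the data were seen.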

Additional observations from a re-analysis of the deposited data

How the results depend on the processing

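The groups of each library were paired by the library block, because they came from the same mice. Without the block the calls fell from 265 to 23 genes for Il21+ and from 292 to 32 for Tnfsf8+ against S1pr1+ cells, from 787 to 32 for Foxp3+ and from 1522 to 221 for CD8 against conventional CD4 cells, from 157 to 1 and 167 to 0 for Nr4a1+ against Nr4a1- CD4 and CD8 cells, from 693 to 6 for Havcr2+ against Havcr2- CD8 cells, and from 2538 to 1577 for T against B cells. Of the 40 tested values of the 8 genes, 9 then lost their call. They were Dusp14 in Nr4a1+ CD4 (1.88, adjusted p = 0.366) and CD8 cells (1.24, adjusted p = 1.00), all 3 in Havcr2+ cells (adjusted p at least 0.742), Dusp5 (0.208) and Dusp14 (0.154) against B cells, and Dusp5 (0.308) and Dusp1 (0.0818) against myeloid cells. DESeq2 called 77, 103, 393, 738, 42, 47 and 153 genes in the first 7 comparisons in the same order. With each cell thinned to 1000 UMIs and gated again the counts were 159, 15, 324, 572, 12, 7 and 41, then 1589 for T against B and 1925 against 3415 for T against myeloid cells. Fewer genes passed the filter there. Every gene with a count gave 613 for Il21+, 339 for Nr4a1 in CD4 and 353 in CD8 cells. The strict gate, without any B cell or myeloid marker UMI, gave 497, 95 and 53 for the same 3. For Nr4a1 in CD4 cells, leaving out the 5% of cells with the most UMIs gave 102 and triple-negative cells alone 1. No TMM gave 4352 for T against B cells. Leaving out 1 library gave 141 to 513 (Tnfsf8+), 411 to 989 (Foxp3+), 792 to 1677 (CD8), 34 to 355 and 59 to 382 (Nr4a1 in CD4 and CD8), 164 to 853 (Havcr2), 1774 to 3272 (T against B) and 2230 to 3151 (T against myeloid). For Il21+ cells this would leave 1 pair and was not run. The cause of these changes was not tested.

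Among the tested values of the 8 genes, signs turned only for those that had not passed the test. For Nr4a1 in CD4 cells these were Dusp1 without TMM (-0.0362) and with 1 library left out (-0.0484 to 0.15), and Dusp10 in thinned (0.36) and triple-negative cells (0.19). For Nr4a1 in CD8 cells they were Dusp2 with no filter (0.0007), no block (0.0518), 1 library left out (-0.157 to 0.0770), the strict gate (0.0279), thinned cells (0.0875) and without the deepest cells (0.0538), and Dusp10 with no filter (0.0198), 1 library left out (-0.12 to 0.0983), the strict gate (0.0572), thinned cells (0.238) and without the deepest cells (0.150). For Havcr2 they were Dusp5 with 1 library left out (-0.221 to 0.0119) and without the deepest cells (0.0141), and Spry1 without the block (-0.0181) and thinned (-1.73). For T against B cells they were Dusp2 without the deepest cells (-0.0530), Dusp4 with 1 library left out (-0.205 to 0.933) and Dusp6 with 1 library left out (-0.0868 to 0.50) and without the deepest cells (-0.332). Under the strict gate 35 of 40 tested values kept their sign and side of the threshold, 3 newly passed and 2 turned. Of the 283 described differences under alternatives, 55 moved by more than their standard error, 15 of 21 in thinned cells, 12 of 30 under the strict gate and 4 of 8 where Foxp3+ cells needed a Cd4 UMI. Of 552 levels, 40 moved by more than 1 SD over libraries, 31 of them among 80 in thinned cells.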
